A study of Mus musculus with 14 samples.

Results

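Bulk ATAC-seq was used to ask how open chromatin differed between 2 states of Atg14-deficient regulatory T cells (Tregs), the central Tregs (cTregs) and the effector Tregs (eTregs). The assay cuts accessible DNA with a transposase, and more reads over a region are read as more open DNA. Members were the columns of 4 eTreg and 4 cTreg libraries of the Atg14-deficient genotype, 8 of the 14 libraries of the series, and all regions were compared with the nearest gene start and position class of each. Control eTregs (n = 3) and control cTregs (n = 3) served for comparison.

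Both states were sorted from the spleens of mixed bone marrow chimeras. The sort took CD4+ cells with Foxp3-YFP, and cTregs were CD44– CD62L+ whereas eTregs were CD44+ CD62L–. The CD45.2+ donor marrow was Foxp3Cre Atg14fl/fl for the Atg14-deficient groups and Foxp3Cre Atg14+/fl for the controls. It was mixed in equal parts with CD45.1+ wild-type marrow and given to sublethally irradiated Rag1–/– mice, 6 to 8 weeks before the experiments. Such hosts lack T and B cells of their own and keep NK and other innate cells. The Cre was driven from the Foxp3 gene, so the floxed alleles were targeted in Foxp3-expressing cells, and control cells carried Cre and a single floxed allele. Some Foxp3Cre Atg14fl/fl mice of the study carried a germline null Atg14 allele, and whether any donor here did is not stated in the sources used. The study describes as many chimera mice per genotype as there are libraries per state. The labels give no age and do not say which libraries share a mouse.

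Tregs restrain other immune cells and depend on the transcription factor Foxp3. cTregs recirculate through lymphoid organs and share with naive T cells the factors Tcf7, Lef1, Satb1, Bach2 and Foxp1, while eTregs have responded to antigen and acquire suppressive molecules such as IL-10. Atg14 is the subunit that directs the lipid kinase Vps34 to autophagosome formation. Opening and closing of distal regions, which hold enhancers, and of promoters accompanies the change from one state to the other. Accessibility is not expression, and a nearest gene is an annotation that need not be the target of a region.

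A region was called when its Benjamini-Hochberg adjusted p in edgeR's quasi-likelihood test was below 0.05 and its log2 fold change (eTreg over cTreg) was beyond 0.5. Among 61366 tested regions, 2707 (4.41%) were more accessible in Atg14-deficient eTregs and 3314 (5.40%) in Atg14-deficient cTregs, 6021 or 9.81% together. The median log2 fold change was 1.33 for regions opening in eTregs and -1.31 for regions closing in them, against 0.02 over all tested regions. Changes of more than 4-fold were found in 534 regions opening in eTregs and 616 regions closing. The 4 eTreg libraries lay wholly above the 4 cTreg libraries in 2073 of the 2707 regions, and wholly below in 2698 of the 3314. Over all tested regions the libraries were separated in the same way in 7.13% (higher in eTregs) and 8.38% (higher in cTregs).

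Sequences are shown for the best-ranked region closing in eTregs that could be printed and for the listed genes Il10 and Gata3, to let the letters be read beside the values. Windows that touched an exon, and some better-ranked regions, are not printed. Each window is the central 300 bases of the region on the plus strand of GRCm38 (RefSeq), and capitals mark the AP-1 letters TGANTCA, the TCF/LEF letters CTTTGA and the GATA letters AGATAA on either strand.
Il10 intron, chr1:131021521-131021820, higher in eTregs: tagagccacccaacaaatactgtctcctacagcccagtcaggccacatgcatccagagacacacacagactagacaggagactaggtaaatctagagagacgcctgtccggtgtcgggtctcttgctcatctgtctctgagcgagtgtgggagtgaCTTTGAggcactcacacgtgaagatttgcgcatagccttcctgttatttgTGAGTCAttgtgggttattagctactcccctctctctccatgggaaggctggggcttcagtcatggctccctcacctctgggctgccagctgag
Disp1 intron, chr1:183134505-183134804, higher in cTregs: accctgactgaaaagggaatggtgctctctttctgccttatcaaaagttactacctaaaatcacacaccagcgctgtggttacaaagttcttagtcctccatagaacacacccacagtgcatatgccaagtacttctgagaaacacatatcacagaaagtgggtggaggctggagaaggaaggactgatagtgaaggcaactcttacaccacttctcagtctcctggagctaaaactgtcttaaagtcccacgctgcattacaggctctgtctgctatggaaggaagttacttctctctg
Gata3 distal, chr2:9681787-9682086, higher in cTregs: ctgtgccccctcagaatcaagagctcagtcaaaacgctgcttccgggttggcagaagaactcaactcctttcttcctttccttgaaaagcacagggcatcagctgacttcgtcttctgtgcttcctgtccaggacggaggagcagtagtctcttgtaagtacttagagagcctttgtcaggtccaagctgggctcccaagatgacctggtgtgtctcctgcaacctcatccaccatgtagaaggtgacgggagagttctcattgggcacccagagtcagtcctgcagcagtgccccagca
The Il10 window held 1 AP-1 and 1 TCF/LEF match, whereas the Disp1 and Gata3 windows held none of the 3 motifs.

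The 8 libraries separated by state. The first principal component of their log2 CPM (counts scaled to a library total of 1000000) held 37.3% of the variance, with cTregs at -82.3, -133, -106 and -18.9 and eTregs at 111, 50.7, 68.0 and 111. The groups did not overlap (two-sided exact permutation test of 4 against 4 libraries, p = 0.0286, which is the smallest possible). cTreg replicate 4 stood nearest to the eTregs. Without it 3823 regions opened and 3594 closed in eTregs, both more than with it. The count fell by more than 1.5 times without cTreg replicate 3 (2759 regions), eTreg replicate 4 (3439) or eTreg replicate 1 (3737), and the regions opening in eTregs fell to 1684 without cTreg replicate 2. With the replicate number as a block, which treats same-numbered libraries as pairs, the count rose to 9495 regions (15.5%), 4684 opening and 4811 closing. Total counts of the 8 libraries were between 2381466 and 3893484.

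**Figure D1:**
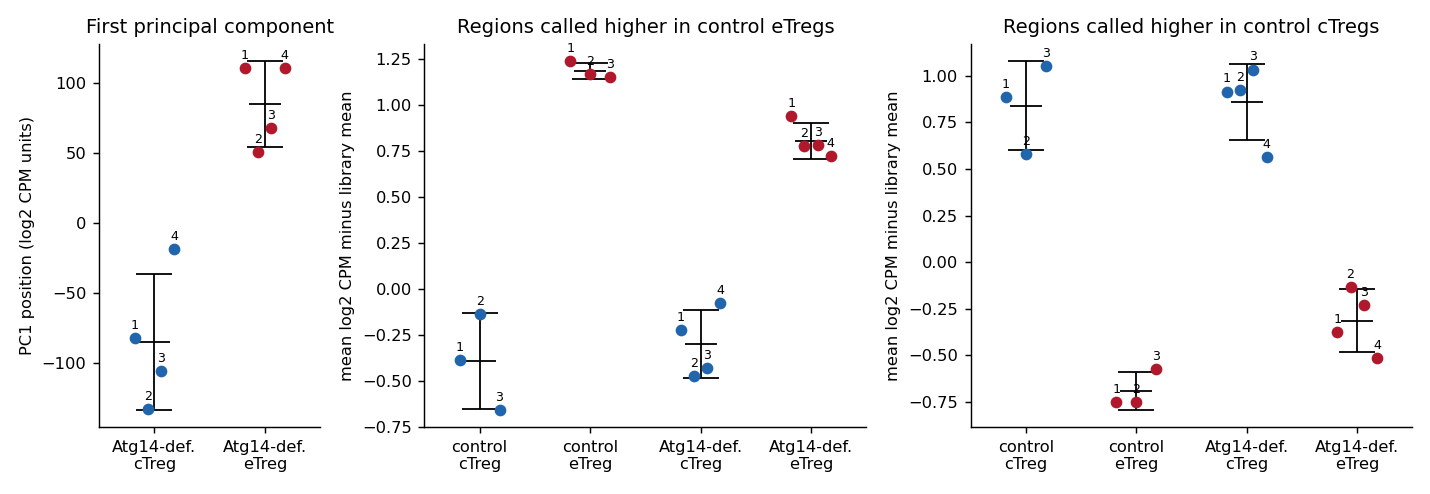
Points are libraries, labelled with the replicate number, and bars show the mean ± SD of each group. The left panel plots the first principal component of the 8 Atg14-deficient libraries, and the other panels plot the mean log2 CPM, minus the library mean, over the regions called higher in control eTregs (1235) or in control cTregs (2016). The Atg14-deficient eTregs lie between 0.72 and 0.94 in the middle panel, above all cTregs and below the control eTregs (1.15 to 1.24), whose values chose these regions.

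The targeted gene and the sort were looked at first. None of the 7 tested regions nearest Atg14 was called, and its region of highest mean count (chr14:47541186-47542012, untranslated exon) had 29.4 ± 2.75 CPM in cTregs and 35.2 ± 5.64 CPM in eTregs (SD, n = 4). This region does not test whether the floxed part of the gene was deleted. Cd44, the adhesion receptor by which eTregs were selected, had 1 of 21 regions more open in eTregs. That region, 55462 bp upstream (chr2:102956875-102957380), had 25.2, 28.0, 33.1 and 37.3 CPM in cTregs and 75.8, 56.5, 63.8 and 65.8 CPM in eTregs. The groups did not overlap (log2 fold change 1.08 ± 0.17 SE, edgeR adjusted p = 0.000283). As the protein was a sort marker, no finding is drawn from this locus.

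Marker genes of T cells and of other cell types were looked at next. No region was nearest to the T cell receptor genes Trac and Trbc1. The 26 regions nearest the other 6 T cell markers summed to 270 to 369 CPM in eTregs and 315 to 355 CPM in cTregs, with 2 of 24 tested regions (8.33%) closing, against 5.40% of all tested regions. No region was nearest to Ms4a1, Pax5 or Blk, and the 10 regions nearest 4 other B cell markers summed to 38.1 to 73.7 CPM in eTregs and 28.4 to 43.7 CPM in cTregs, with 0 of 8 tested regions called and 2, at Ebf1 and Cd22, opening with the replicate block. The 21 myeloid marker regions, with none nearest Lyz2 or Csf1r, summed to 118 to 143 CPM in eTregs and 89.4 to 112 CPM in cTregs. Of their 16 tested regions 3 (18.8%) opened, against 4.41% of all tested regions, and these were all nearest Cebpa, a myeloid transcription factor. The CD8 T cell marker list had 2 of 12 tested regions (16.7%) higher in cTregs, with sums of 61.9 to 75.5 CPM in eTregs and 74.5 to 115 CPM in cTregs. The NK cell list had 2 of 16 (12.5%) higher in cTregs (247 to 278 CPM in eTregs and 308 to 348 CPM in cTregs) and the erythroid list 1 of 8 (12.5%; 36.6 to 60.4 and 44.8 to 62.0 CPM), against 5.40% of all tested regions. In bulk samples a few cells of another type and a low level in every cell cannot be told apart, and the part of these loci in the results below was not tested.

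Regions nearest genes of the naive T cell program closed in eTregs more often than they opened. Of 351 tested regions nearest 18 genes of the cTreg and naive program, 56 (16%) were less accessible in Atg14-deficient eTregs and 6 were more accessible, against 5.40% and 4.41% of all tested regions. The median log2 fold change of the list was -0.34. Closing regions lay at 12 of the 18 genes and not at Foxo1, Bcl2, Id3, Myb, Igf1r or Il6ra, with most of them at Bach2 (12 of 44 regions), Foxp1 (10 of 49), Satb1 (7 of 15), Il7r (6 of 15), Lef1 (5 of 36) and Dapl1 (5 of 13). Without cTreg replicate 4 the list had 58 closing (16.5%) and 7 opening (1.99%) regions, against 5.85% and 6.23% of all tested regions in that fit.

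Satb1, an organizer of chromatin loops in T cells, closed at 7 of 15 regions, and the log2 fold change was negative in all 15. The intron region 11627 bp downstream of the start (chr17:51800259-51800596) had a mean of 10.2 ± 1.94 CPM in cTregs and 1.42 ± 0.997 CPM in eTregs (SD, n = 4; log2 fold change -2.70 ± 0.52 SE, edgeR adjusted p = 0.0016). Its eTreg mean lay near the 0.771 to 1.26 CPM that 3 counts make in the eTreg libraries. Lef1 is a partner of beta-catenin that binds TCF/LEF letters. The region 2174 bp upstream of its nearest start (chr3:131153959-131154281) had 18.1, 13.6, 18.7 and 20.6 CPM in cTregs and 5.99, 5.02, 5.29 and 6.68 CPM in eTregs. The eTreg libraries lay close together and wholly below the cTregs (log2 fold change -1.61 ± 0.27 SE, edgeR adjusted p = 0.000533).

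Il7r, the receptor for the survival cytokine IL-7, closed at its promoter and at upstream regions. The strongest region (chr15:9533295-9533793) had 37.8, 41.3, 49.7 and 36.6 CPM in cTregs and 15.6, 13.4, 20.6 and 20.5 CPM in eTregs. The groups were separated (log2 fold change -1.22 ± 0.21 SE, edgeR adjusted p = 0.000559). Bach2, a repressor of effector genes, had its lowest p at 53738 bp upstream (chr4:32363355-32364040), where the mean was 34.1 ± 4.45 CPM in cTregs and 13.8 ± 1.78 CPM in eTregs (SD, n = 4; log2 fold change -1.30, edgeR adjusted p = 0.000248). The promoters of Ccr7 and Tcf7 were called less firmly. The Ccr7 promoter, of the receptor that guides cells into lymph nodes, was lower in eTregs (log2 fold change -0.96 ± 0.24 SE, edgeR adjusted p = 0.0113), but the call was lost without cTreg replicate 3 (adjusted p = 0.0530). The Tcf7 promoter had 4.20, 9.34, 5.26 and 4.50 CPM in cTregs and 2.40, 0, 2.12 and 2.05 CPM in eTregs. A count of 0 in eTreg replicate 2 would allow up to 1.26 CPM if counts were independent, and more here, where they are not. The promoter was called (log2 fold change -1.72 ± 0.52 SE, edgeR adjusted p = 0.0313) and lost its call in 4 of the 14 fits without 1 library, with an adjusted p of 0.118 without cTreg replicate 2.

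**Figure D2:**
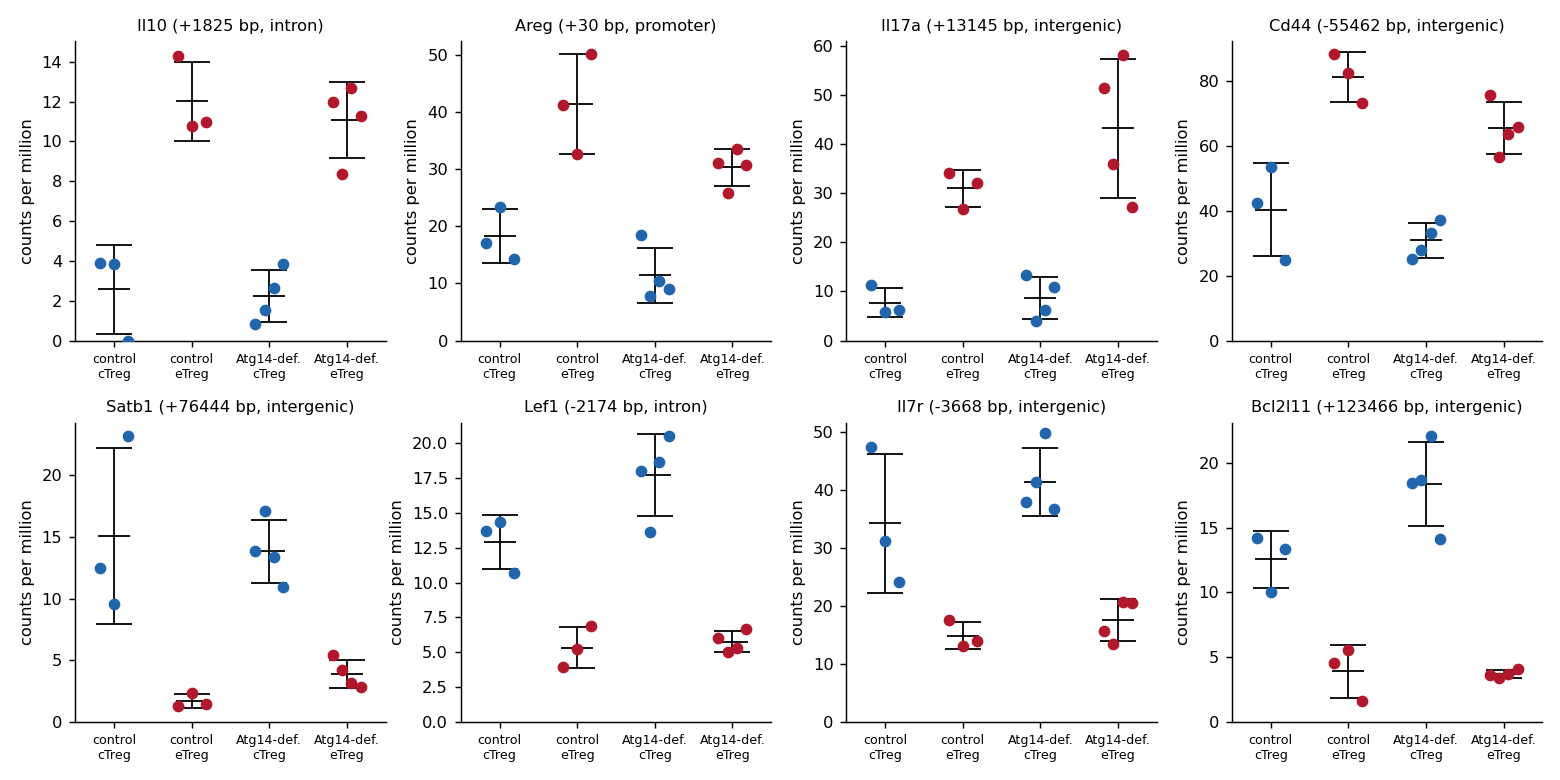
CPM in each library (points) with the group mean ± SD (bars), for the best-ranked called region of 4 genes that opened (top) and 4 that closed (bottom) in Atg14-deficient eTregs, with its distance from the gene start. In all 8 panels the Atg14-deficient eTreg and cTreg points do not overlap, and the control means lie in the same order.

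Suppressive molecules opened at some loci and closed at others. Of 153 tested regions nearest 19 suppressive and terminal effector genes, 17 (11.1%) were more accessible in eTregs and 10 (6.54%) less, against 4.41% and 5.40% of all tested regions, with a median log2 fold change of 0.21. With the replicate block 36 (23.5%) opened and 15 (9.80%) closed, against 7.63% and 7.84% of all tested regions in that fit. Without cTreg replicate 4 the counts were 27 (17.4%) and 11 (7.10%), against 6.23% and 5.85%. Il10, the gene of an inhibitory cytokine, had 5 of 13 regions called, all higher in eTregs. Its intron region shown above (chr1:131021513-131021828) had 0.840, 1.56, 2.63 and 3.85 CPM in cTregs and 12, 8.37, 12.7 and 11.3 CPM in eTregs. This separation was called whichever library was left out (log2 fold change 2.26 ± 0.45 SE, edgeR adjusted p = 0.00209). The 0.840 CPM of cTreg replicate 1 lay below the 1.26 CPM that 3 counts make in that library, so the size of the fold change rests on few counts. The other 4 regions were at 25950, 16425 and 9152 bp upstream and 6158 bp downstream, with log2 fold changes between 0.63 and 1.55, and each lost its call without cTreg replicate 3 or another library (largest adjusted p between 0.0627 and 0.122).

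Areg encodes amphiregulin, a growth factor of tissue repair, and 3 of its 4 regions were more open in eTregs, 1 of which lost its call without cTreg replicate 2 (adjusted p = 0.0887). Its promoter (chr5:91139303-91139955) had 18.5, 7.79, 10.5 and 8.99 CPM in cTregs and 31.2, 25.9, 33.6 and 30.8 CPM in eTregs. The lowest eTreg library lay above the highest cTreg library (log2 fold change 1.43 ± 0.24 SE, edgeR adjusted p = 0.000401). Tigit, an inhibitory receptor, had 2 of 13 regions higher in eTregs, the stronger rising from 8.82 ± 3.15 to 22.4 ± 3.92 CPM (SD, n = 4; log2 fold change 1.36, edgeR adjusted p = 0.00168). The inhibitory receptor Pdcd1 (PD-1) had 2 higher and 1 lower of 10, and the region in its intron rose by 1.65 on the log2 scale (edgeR adjusted p = 0.0068). By contrast, the costimulatory receptor Icos had 5 of 28 regions called and all were less open in eTregs, its promoter included (38.8 ± 7.41 CPM in cTregs and 22.9 ± 2.67 CPM in eTregs; log2 fold change -0.75, edgeR adjusted p = 0.00895). Klrg1, a marker of terminal eTregs, had 0 of 7 regions called. Its region of highest mean count had 10.9, 9.34, 12.6 and 19.3 CPM in cTregs and 12, 6.69, 13.8 and 26.7 CPM in eTregs, and the groups overlapped (log2 fold change 0.20 ± 0.32 SE, edgeR adjusted p = 0.737).

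Treg identity genes were mixed. Of 136 tested regions nearest 12 such genes, 10 (7.35%) opened and 15 (11%) closed in eTregs, against 4.41% and 5.40% of all tested regions, with a median log2 fold change of -0.17. Foxp3 had a single tested region, in its intron, which overlapped between the groups (20.2, 12.5, 21.0 and 26.7 CPM in cTregs and 14.4, 7.53, 18.8 and 18.2 CPM in eTregs; log2 fold change -0.43 ± 0.26 SE, edgeR adjusted p = 0.298). None of the 14 regions of Il2ra, the IL-2 receptor alpha chain, was called. Gpr83, a G protein-coupled receptor of Tregs, closed at 4 of 6 regions, and Lrrc32 (GARP, which presents latent TGF-beta) at 4 of 21. The Gpr83 promoter had 37.6 ± 6.90 CPM in cTregs and 18 ± 5.93 CPM in eTregs (SD, n = 4; log2 fold change -1.05, edgeR adjusted p = 0.00348).

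Ctla4, the inhibitory receptor that competes for CD28 ligands, changed in both directions within one locus. Of its 24 regions 4 opened and 4 closed. The promoter (chr1:60908826-60909240) had 62.6, 45.5, 70.5 and 56.9 CPM in cTregs and 44.0, 33.5, 37.1 and 34.2 CPM in eTregs. It was lower in every eTreg library (log2 fold change -0.66 ± 0.15 SE, edgeR adjusted p = 0.00494). The region 6322 bp upstream (chr1:60902438-60902968) was higher, with 7.56, 4.67, 5.78 and 3.85 CPM in cTregs and 19.8, 14.2, 13.2 and 12.8 CPM in eTregs (log2 fold change 1.46 ± 0.35 SE, edgeR adjusted p = 0.00874). Ikzf2, which encodes Helios, also had both, with 4 regions opening and 2 closing of 37. Among 1122 genes with at least 2 called regions, 295 had only opening regions, 562 had only closing regions and 265 had both.

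**Figure D3:**
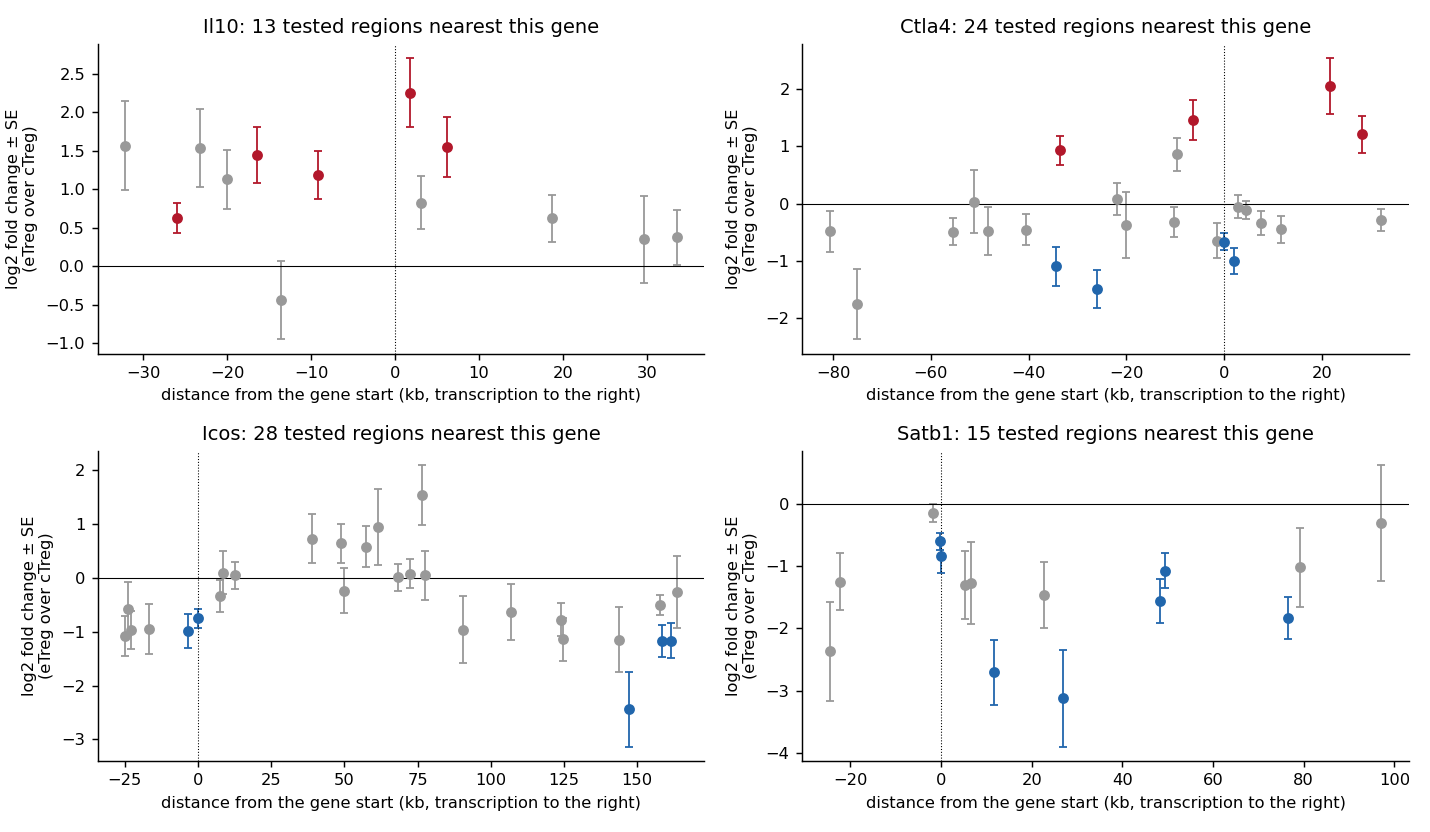
Log2 fold change ± SE of every tested region nearest Il10, Ctla4, Icos and Satb1, by distance from the gene start with transcription to the right (red, called higher in Atg14-deficient eTregs; blue, called higher in cTregs; grey, not called). Il10 has 5 red regions, Icos has 5 and Satb1 has 7 blue regions, whereas Ctla4 has 4 of each.

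Transcription factors of eTregs also split by gene. Of 327 tested regions nearest 23 factors, 28 (8.56%) opened and 26 (7.95%) closed, against 4.41% and 5.40% of all tested regions, with a median log2 fold change of 0.08. Without cTreg replicate 4 the counts were 40 (12.2%) and 22 (6.73%), against 6.23% and 5.85% of all regions, and with the replicate block 40 (12.2%) and 33 (10.1%), against 7.63% and 7.84%. All called regions were opening at Maf (4 of 46), which drives Il10 transcription, at Runx3 (3 of 18), and at Tbx21, Hif1a, Runx2, Nfil3 and Tox2 (2 each). The Tbx21 region with the smallest p lost its call without eTreg replicate 4 (edgeR adjusted p = 0.142 against 0.0367), and that of Runx2 without eTreg replicate 1 (0.109 against 0.0235). They lost it in 5 and 4 of the 14 fits without 1 library. Rora, a nuclear receptor of tissue Tregs, opened at 4 of 13 regions and closed at 1. The Rora intron region 8250 bp downstream of the start had 7.56, 13.2, 12.6 and 13.8 CPM in cTregs and 23.1, 21.8, 26.5 and 31.3 CPM in eTregs (log2 fold change 1.11 ± 0.24 SE, edgeR adjusted p = 0.00446). The Maf region with the smallest p, in an intron 430445 bp from the Maf start, rose from 4.61 ± 1.42 to 14.9 ± 6.29 CPM (SD, n = 4; log2 fold change 1.70, edgeR adjusted p = 0.00391).

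Some other factors of the same list had more closing than opening regions, although most of their regions were not called. They were picked for their closing calls, so the counts are a description, beside 5.40% closing and 4.41% opening over all tested regions. Tox closed at 11 of 40 regions and opened at 1, Gata3 closed at 5 of 24, Irf4 at 4 of 24 and Prdm1, which encodes Blimp-1, at 2 of 15. The Tox promoter had 79.8, 102, 84.1 and 66.8 CPM in cTregs and 48.2, 44.3, 47.4 and 33.9 CPM in eTregs. Its groups were separated (log2 fold change -0.94 ± 0.15 SE, edgeR adjusted p = 0.000367). The Irf4 intron region 11264 bp downstream had 40.1 ± 7.79 CPM in cTregs and 17.5 ± 4.19 CPM in eTregs (SD, n = 4; log2 fold change -1.19, edgeR adjusted p = 0.000423). The distal Gata3 region whose sequence is given above had 27.3 ± 3.36 and 12.1 ± 1.93 CPM (SD, n = 4; log2 fold change -1.17, edgeR adjusted p = 0.00302). The stronger Prdm1 region, in an intron, was lower by -0.75 on the log2 scale (edgeR adjusted p = 0.0148) and lost its call without eTreg replicate 1 (adjusted p = 0.0534).

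Regions nearest a list of factors, most of which act downstream of the antigen receptor, had more closing than opening calls. Of 115 regions nearest the 10 listed genes, 12 (10.4%) were lower in eTregs and 2 (1.74%) higher, against 5.40% and 4.41% of all tested regions, with a median log2 fold change of -0.16. Without cTreg replicate 4 the counts were 8 closing (6.96%) and 5 opening (4.35%), where the closing share was near the 5.85% of all regions and 6.23% opened. With the replicate block they were 13 (11.3%) and 7 (6.09%), against 7.84% and 7.63%. Of the 12 closing regions 5 lay at Ikzf1, a general lymphoid regulator with 16 tested regions. Its strongest region went from 85.0 ± 18.7 to 38.7 ± 11 CPM (SD, n = 4; log2 fold change -1.13, edgeR adjusted p = 0.000267). Nr4a2, Egr1, Egr3, Nfatc2 and Nfatc3 had no called region. Nfatc1 had 2 opening and 3 closing regions of 24. Of 73 regions nearest 12 AP-1 family genes, 7 (9.59%) closed, at Jun (2) and Bach1 (5), and 1 (1.37%) opened, at Batf3, against the same shares of all tested regions. Without cTreg replicate 4 there were 7 closing (9.72%) and 5 opening (6.94%), and with the replicate block 12 (16.4%) and 6 (8.22%), so in these fits the opening share was not below that of all regions. The Jun region 1133 bp upstream had 106, 101, 120 and 96.4 CPM in cTregs and 59.6, 54.0, 71.2 and 57.5 CPM in eTregs. All eTreg libraries were lower (log2 fold change -0.81 ± 0.12 SE, edgeR adjusted p = 0.000136). The Batf3 call (log2 fold change 0.95, edgeR adjusted p = 0.0468) was lost without eTreg replicate 4 (adjusted p = 0.238).

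Among the 13 gene lists other than markers of other cells, helper cytokines had the largest share of opening regions. Of 48 tested regions nearest 11 cytokine genes, 9 (18.8%) opened and 1 (2.08%) closed in eTregs, against 4.41% and 5.40% of all tested regions, with a median log2 fold change of 0.59. In the controls 3 opened and 1 closed, with a median of 0.18, where 2.01% and 3.29% of all tested regions did. The difference between genotypes was not tested for this list. Il17a opened at 2 of 3 regions. The region 13145 bp downstream of its start (chr1:20743756-20744345) had 13.4, 3.89, 6.31 and 10.9 CPM in cTregs and 51.5, 36.0, 58.2 and 27.2 CPM in eTregs. The groups were separated (log2 fold change 2.34 ± 0.30 SE, edgeR adjusted p = 4.38e-05), and the control log2 fold change was 1.97. A region of Il17f, its neighbour, rose from 1.28 ± 0.564 to 8.25 ± 3.03 CPM (SD, n = 4; log2 fold change 2.59, edgeR adjusted p = 0.00076). Its cTreg mean lay near the 0.789 to 1.26 CPM that 3 counts make in the cTreg libraries. Il13, a cytokine of type 2 immunity, opened at 2 of 4 regions, the stronger from 8.30 ± 3.19 to 21.4 ± 4.28 CPM (SD, n = 4; log2 fold change 1.38, edgeR adjusted p = 0.00335). Il2 opened at 2 of 3 regions, Il21 at 1 of 6 and Il4 at its only region, whose call was lost without eTreg replicate 4 (adjusted p = 0.117 against 0.0250). Ifng had 1 of 20 regions called, which closed (log2 fold change -0.99, edgeR adjusted p = 0.0113), a call lost without cTreg replicate 3 (adjusted p = 0.0525). No region was called at Il5, Il22, Csf2 or Tnf.

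Regions nearest autophagy genes had more opening than closing calls. Of 129 tested regions nearest 34 genes of autophagy and the Vps34 complexes, 12 (9.30%) were higher in eTregs and 3 (2.33%) lower, against 4.41% and 5.40% of all tested regions, with a median log2 fold change of 0.12. In the controls 5 were higher and 3 lower, where 2.01% and 3.29% of all tested regions were called. The difference between genotypes was not tested for the list. The opening regions lay at 9 genes, among them Gabarap and Gabarapl2, which are lipidated on autophagosomes, Atg7, which activates them, and the cargo receptor Sqstm1. The Gabarapl2 promoter had 15.1, 15.6, 15.2 and 24.4 CPM in cTregs and 35.1, 40.6, 22.8 and 33.9 CPM in eTregs, with cTreg replicate 4 inside the eTreg range (log2 fold change 0.90 ± 0.21 SE, edgeR adjusted p = 0.00759). The Sqstm1 region 2362 bp upstream rose by 1.40 on the log2 scale (edgeR adjusted p = 0.00902), and by 1.40 in the controls, but lost its call without cTreg replicate 3 (adjusted p = 0.0516). Neither Pik3c3, which encodes Vps34, nor Becn1 had a called region, whereas the regulatory subunit gene Pik3r4 had 1 of 2 opening (log2 fold change 0.63, edgeR adjusted p = 0.0268), lost without any 1 of 5 libraries (largest adjusted p = 0.0961 without eTreg replicate 4).

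The regions with the smallest p were mostly outside these lists. The 10 best opening regions that were separated between the groups included those nearest Lmnb1, Asb1, Farp1, Zdhhc2, Ptpn13, Dcbld2, Pcyox1l, Mms22l and Ccn2, and 6 of them were promoters. The Lmnb1 intron region, at the gene of lamin B1, had 18.5, 9.34, 18.9 and 12.8 CPM in cTregs and 66.5, 54.4, 51.6 and 37.5 CPM in eTregs. It was separated (log2 fold change 1.80 ± 0.20 SE, edgeR adjusted p = 1.1e-05). The Asb1 promoter was tight within groups, at 49.4 ± 5.23 CPM in cTregs and 97.0 ± 3.50 CPM in eTregs (SD, n = 4; log2 fold change 0.97 ± 0.11 SE, edgeR adjusted p = 1.31e-05). The Mms22l intron region rose from 8.45 ± 3.58 to 32.0 ± 5.57 CPM (SD, n = 4; log2 fold change 1.90, edgeR adjusted p = 3.26e-05).

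The 10 best closing regions were nearest Cd226, Disp1, St6gal1, St8sia1, Gm20139, Mdfic, Usp6nl, Mir1903, A430035B10Rik and Neto2, and none was a promoter. Cd226 is an activating receptor that shares ligands with Tigit. Its region 37397 bp upstream had 71.4, 63.8, 64.7 and 61.7 CPM in cTregs and 13.8, 28.4, 16.4 and 15.4 CPM in eTregs. Groups were far apart (log2 fold change -1.85 ± 0.18 SE, edgeR adjusted p = 1.3e-06), and the control log2 fold change was also -1.85. The Disp1 intron region shown above fell from 31.1 ± 5.79 to 5.58 ± 0.949 CPM (SD, n = 4; log2 fold change -2.47 ± 0.24 SE, edgeR adjusted p = 1.3e-06). St6gal1 and St8sia1 both encode sialyltransferases, and their intron regions fell by 1.98 and 2.32 on the log2 scale (edgeR adjusted p = 6.36e-06 and 7.87e-06). All 20 regions were called in each fit without 1 library.

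Several genes carried many called regions. They were picked for the number of their calls, so that the counts are a description, beside 4.41% opening and 5.40% closing over all tested regions. Xylt1 had 8 opening regions of 27, Eif3h 7 of 16, Rassf6 6 of 9, Klf12 6 of 12 and Atxn1 6 of 24. Atp10a, a lipid flippase gene, had 17 closing regions of 52, Mir6368 12 of 22, Ext1 12 of 29, Bach2 12 of 44 and Cblb, which encodes a ubiquitin ligase that limits T cell activation, 11 of 30. Nrip1 had 11 of 35, Tox 11 of 40 and Btg1 11 of 41.

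Promoters were over-represented among opening regions under total-count scaling. A promoter was a region centred between 1000 bp upstream and 100 bp downstream of a RefSeq gene start. Promoters made up 16.9% of tested regions, 22.9% of the regions opening in eTregs and 6.04% of those closing. Of 10349 promoters 620 (5.99%) opened and 200 (1.93%) closed, whereas of 51017 other regions 2087 (4.09%) opened and 3114 (6.10%) closed. With loess offsets for GC content promoters opened less often than other regions (3.00% against 4.69%) and still closed less often (3.34% against 5.58%). They were then 11.5% of the opening and 10.8% of the closing regions. With a log2 fold change beyond 1 they were 10.6% and 3.26%. Under total-count scaling the shift was small per region, with a median log2 fold change of 0.13 over all promoters and -0.01 over the other regions. With GC offsets these medians were 0.007 and -0.002. The median GC content was 64.7% for opening promoters and 54.6% for closing ones, against 62.1% for all promoters. The 6 promoters named above were called with GC offsets too.

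The share of all counts in promoters was 42.8, 44.4, 42.4 and 41.5% in the cTreg libraries and 43.0, 46.1, 44.4 and 44.3% in the eTreg libraries. The share was higher in the eTreg library of each of the 4 same-numbered pairs, by 0.22 to 2.83 percentage points (exact sign-flip test, two-sided p = 0.125, the smallest that 4 pairs allow). The ranges overlapped, and without pairing the mean difference of 1.67 percentage points missed the threshold (exact permutation test, two-sided p = 0.114, n = 4 against 4; the smallest possible is 0.0286). The closing share was lowest near gene starts. From 50000 to 100000 bp away 577 of 6992 regions (8.25%) closed and 320 (4.58%) opened. Beyond 100000 bp 361 of 4911 (7.35%) closed and 265 (5.40%) opened. Within 1000 bp 287 of 13915 (2.06%) closed and 767 (5.51%) opened.

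**Figure D4:**
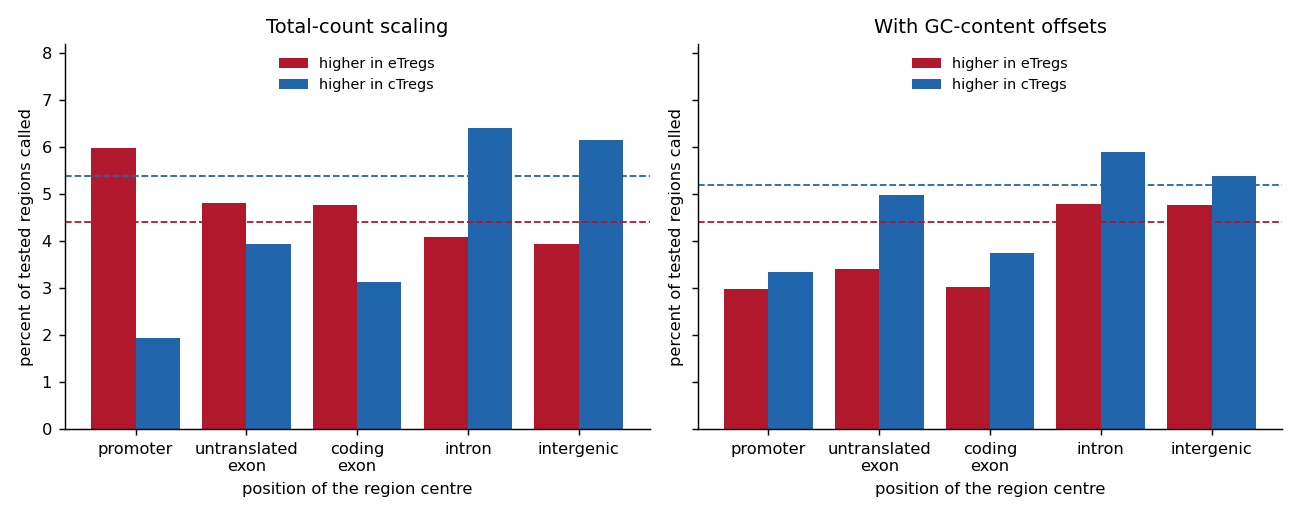
Percent of the tested regions of each position class that were called higher in Atg14-deficient eTregs (red) or cTregs (blue), with total-count scaling (left) and GC-content offsets (right). Dashed lines are the percents over all regions. Promoters stand at 5.99% opening and 1.93% closing on the left, and at 3.00% and 3.34% on the right.

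Opening and closing regions differed in the short motifs they held. The AP-1 letters TGANTCA, which are the same on both strands, occurred in 33.3% of opening regions (95% Wilson interval 31.6 to 35.1), 16.5% of closing regions (15.3 to 17.8) and 17.5% of all tested regions. The TCF/LEF letters CTTTGA or their complement occurred in 26.3% of opening, 40.3% of closing (38.6 to 42.0) and 25.8% of all regions. The GATA letters AGATAA or their complement occurred in 16.3%, 27.2% (25.7 to 28.7) and 16.4%. AP-1 letters were thus more frequent in opening regions, and TCF/LEF and GATA letters in closing regions.

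Called regions were longer, with medians of 439 bp (opening) and 391 bp (closing) against 340 bp over all tested regions. In the central 200 bp of each region, where length is the same for all, AP-1 letters were in 23.3% of opening, 9.27% of closing (8.33 to 10.3) and 11.5% of all regions. TCF/LEF letters were in 12.3% (11.1 to 13.6), 25.0% and 14.7%, and GATA letters in 6.19% (5.34 to 7.16), 14.7% and 8.57%. There the AP-1 letters in closing regions, and the TCF/LEF and GATA letters in opening regions, lay below the share of all regions. Without promoters the AP-1 letters were in 40.3%, 17.0% and 19.2%. The T-box letters TCACACC were in 10.6% of opening, 6.67% of closing and 6.98% of all regions, and the NFAT letters TGGAAA in 36.6%, 32.2% and 29.3%. The ETS letters AGGAAG were in 54.2%, 61.8% and 51.7%, and the NR4A letters AAAGGTCA in 2.85%, 4.47% and 2.51%. The RUNX letters TGTGGT were in 40.3%, 39.8% and 34.2%, the E-box letters CAGCTG in 26.2%, 27.0% and 23.1%, the KLF letters GGGNGTGG in 23.2%, 19.1% and 19.3%, and the forkhead letters TGTTTAC in 7.15%, 6.79% and 5.81%. Some of these orders changed with the regions used. KLF letters were in 18.8% of opening and 22.5% of closing regions called with GC offsets. In opening regions called that way, TCF/LEF letters were in 29.1% against 25.8% of all regions, and GATA letters in 19.8% against 16.4%. Without promoters these were 29.1% against 26.9%, and 18.8% against 17.7%, so both motifs then lay above the share of all regions. In the central 200 bp, ETS letters were in 31.0% of opening against 34.7% of all regions, E-box letters in 12% against 12.8%, and NR4A letters in 1.19% against 1.39%. A match is a run of letters and not a bound site, and intervals cover counting error only.

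Control cells showed the same state difference over most of these regions. The control fold changes came from libraries that the Atg14-deficient fold changes did not use. Both sets of calls came from the same fit of all 14 libraries, with a shared filter and spread, so they were not independent. The control comparison called 1235 regions opening (2.01%) and 2016 closing (3.29%), 3251 together (5.30%). Of the 2707 regions opening in Atg14-deficient eTregs, 95.5% had the same direction in the controls and 722 (26.7%) were called there, which was 58.5% of the control list. Of the 3314 closing regions 98.1% had the same direction and 1302 (39.3%) were called, which was 64.6% of the control list. None was called in the opposite direction. Over all tested regions 73.3% had the same direction, and the log2 fold changes of the genotypes had a Pearson r of 0.68 across regions, which are not independent replicates.

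The regions called in Atg14-deficient cells had smaller median log2 fold changes in the controls, at 0.89 against 1.33 (opening) and -1.07 against -1.31 (closing), and those called in the controls had smaller medians in Atg14-deficient cells, at 1.14 against 1.52 and -1.18 against -1.61. Each list was thus larger in the cells that chose it. More regions were called in Atg14-deficient cells, which had 4 libraries a group against 3. With 3 Atg14-deficient libraries a group the order of the counts depended on the libraries. Each of these fits left out the Atg14-deficient libraries of a replicate number and kept all controls, so every group had 3 libraries. Without replicate 4, 4523 regions were called in Atg14-deficient cells and 3513 in controls. Without replicate 2 the counts were 4173 and 3910. Without replicate 1 they were 2158 and 2819 and without replicate 3 they were 1927 and 2638, fewer in Atg14-deficient cells. A test of the difference between genotypes called 0 regions with edgeR and 0 with DESeq2, and 1994 regions (3.25% of those tested) had an unadjusted p below 0.05 with edgeR. With the replicate block 1 region was called, near Epas1.

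A few named regions differed in their control values without passing that test. The Maf region above had a control log2 fold change of -0.11 ± 0.40 SE against 1.70 ± 0.37 SE, and the Il13 region had 0.25 ± 0.32 SE against 1.38 ± 0.29 SE. Others had the larger change in the controls, such as the Satb1 region with the smallest p (-3.09 against -1.83) and a Klf2 region (-2.01 against -1.18), whose call in Atg14-deficient cells was lost without eTreg replicate 1 (edgeR adjusted p = 0.0673). These examples were chosen after their values were seen. The smallest adjusted p of the difference over all regions was 1.00 without the replicate block and 0.00402 with it.

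**Figure D5:**
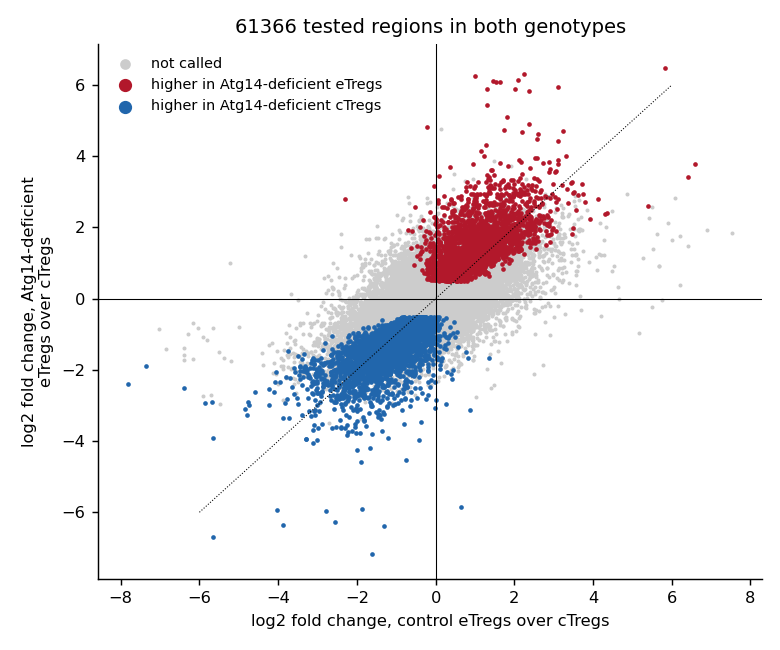
Each point is 1 of 61366 tested regions, with the log2 fold change of eTregs over cTregs in control libraries (x axis) and in Atg14-deficient libraries (y axis). Red and blue points were called in the Atg14-deficient comparison, and the dotted line marks equal values. Most red points lie at the upper right and most blue points at the lower left; 95.5% of the red and 98.1% of the blue points share their direction.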

How the data were processed

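Bulk ATAC-seq was measured in 14 libraries, of which the 8 Atg14-deficient ones are described and 6 controls are compared. The authors deposited raw counts of reads per region for each library. Per the labels, their processing notes name cutadapt 1.9, Picard 1.65, SAMtools, MACS2 2.1.0.20150603, bedtools and mm10, whereas the study's methods name Trimmomatic, BWA and mm9. Common regions were merged from peaks present in 50% or more of a group's replicates. All 67207 regions on chromosomes lay within the GRCm38 chromosome ends, and 10984 of 21000 RefSeq gene starts had a region inside 200 bp, compared with 793 once the regions were moved by 20000 bp, so GRCm38 was used. Of the deposited counts 82.0% were even, so counts are not independent fragments and intervals cover counting error only. The median of the mean count per library over tested regions was 23.

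Regions were filtered with filterByExpr and tested with edgeR 4.0.16 (robust quasi-likelihood, total counts as library size, all 14 libraries in 4 groups, Benjamini-Hochberg adjustment over 61366 regions). SE was the absolute log2 fold change over the square root of F, and CPM is counts scaled to a library total of 1000000. limma 3.58.1 gave loess offsets and DESeq2 1.42.0 an alternative test, in R 4.3.3. Python 3.11.15, pandas 2.3.3, NumPy 2.4.6, SciPy 1.17.1, pysam 0.24.0 and matplotlib 3.10.9 were used for the rest, and the fit was tested on simulated data.

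Named regions were the 10 of smallest p in each direction whose libraries did not overlap, for listed genes the called region of smallest p (otherwise that of highest mean count), and the 5 genes with the most called regions in each direction. Other called regions of a gene (Il10, Ctla4, Satb1 and others) and further genes were chosen after their values were seen. The comparison, gene lists and markers were chosen with earlier results of these data known. Some items are not reported here. A nearest gene was that of the nearest RefSeq start.

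Same-numbered Atg14-deficient libraries deviated together (r between 0.119 and 0.243 in 4 pairs, against -0.187 to 0.0963 for other pairs), so the replicate numbers were taken to pair them, a pairing taken from the data, since the labels do not tie numbers to mice. In the controls r was 0.0543 to 0.209 for same-numbered libraries. The alternatives changed the normalization, the filter on low counts, the test, the threshold, the replicate block, the samples and the promoter definition.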

Additional observations from a re-analysis of the deposited data

Results flagged for a closer look

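In 11 of 270 groups of 4 Atg14-deficient libraries, 1 library lay far from the other 3 by Dixon's ratio of its gap to the range at the 95% level, which chance gives in about 1 of 20 groups. In eTreg replicate 4, the region was higher for Batf3 (21.6 CPM against 11.1 to 11.7) and for the inhibitory receptor Lag3 (30.3 CPM against 20.6 to 21.8). In the same library it was lower for Cd8b1 (1.54 CPM against 5.86 to 6.35) and for the Ctla4 intron region (11.3 CPM against 19.3 to 20.9). In eTreg replicate 2 it was higher for Mdfic (25.1 CPM against 22.6 to 22.8) and lower for Il13 (15.1 CPM against 22.9 to 24.4) and the Tcf7 promoter (0 CPM against 2.05 to 2.40). Among cTregs, replicate 2 was low at the Ccr7 promoter (18.7 CPM against 42.9 to 44.0) and replicate 4 was high at the Gabarapl2 promoter (24.4 CPM against 15.1 to 15.6). cTreg replicate 1 was low at an Il7r region (5.88 CPM against 13.7 to 14.4) and at a Satb1 intron region (10.9 CPM against 14.5 to 14.8).

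The state difference was opposite between genotypes at a region 43851 bp upstream of Epas1 (chr17:86709765-86710262), the gene of the hypoxia factor HIF-2 alpha. Atg14-deficient cTregs had 68.9, 60.0, 55.2 and 64.2 CPM and eTregs 46.1, 30.1, 36.3 and 44.2 CPM. Control cTregs had 53.8, 58.9 and 40.6 CPM and eTregs 71.6, 84.5 and 57.5 CPM. The log2 fold change was -0.65 ± 0.16 SE in Atg14-deficient cells and 0.46 ± 0.17 SE in controls. With the replicate block the difference was -1.14 (edgeR adjusted p = 0.00402), whereas without it the difference was -1.11 (unadjusted p = 4.3e-05, adjusted p = 1.00), so it was called in the blocked fit and not in the other.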

How the results depend on the processing

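Over 286 named regions, of which 159 were called, none of 8760 values under the alternatives reversed. In 8150 the call was the same, 519 fell short of the threshold (448 of them among 5135 fits without a library or a same-numbered set), and 91 newly passed it. With the replicate block, which pairs same-numbered libraries, no called region was lost and 12 uncalled ones passed, among them those of Myc (log2 fold change -0.59), Mafk (0.52) and Cxcr3 (1.56). The block gave 9495 regions differing in Atg14-deficient cells (4684 opening in eTregs), 6367 in controls and 1 differing between genotypes. With the block and GC offsets together the counts were 9136 (4482 opening), 6560 and 1. With at least 10 counts in every library they were 3483 (1452 opening and 2031 closing) and 1740 in controls, and fewer regions were tested. At an unadjusted p below 0.05 with the same fold they were 14198 (6984 opening and 7214 closing), 11142 in controls and 1871 between genotypes. Without a library or a same-numbered set, 1927 to 7417 regions differed in Atg14-deficient cells, 768 to 3823 opening and 1159 to 3594 closing, and 1105 to 3910 in controls.

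Promoters were 22.9% of opening regions, 21.3% with TMM or loess offsets, 11.5% with GC offsets, 20.8% with the replicate block, 11.9% with the block and GC offsets, 39.6% with at least 10 counts, 10.6% with a log2 fold change beyond 1, 19.2% at an unadjusted p, 28.3% within 1000 bp on either side and 17.2% to 29.2% without libraries. Of closing regions they were 10.8% with GC offsets, 9.63% with the block and GC offsets, 8.96% with at least 10 counts, 3.26% beyond 1, 8.66% within 1000 bp and 5.21% to 7.41% without libraries. The cause of these changes was not tested. The AP-1 share was 23.3% of opening and 9.27% of closing regions in the central 200 bp, 40.3% of opening regions without promoters, and 39.6% and 15.2% for regions called with GC offsets. The TCF/LEF share was 12.3% and 25.0%, 29.1%, and 29.1% and 38.3% in that order, and the GATA share 6.19% and 14.7%, 18.8%, and 19.8% and 25.4%. The analyses without promoters and with GC-offset calls were chosen after seeing the data. Over the tested regions the median of the mean count per library was 23, and with counts thinned to the smallest library total 5034 regions differed in Atg14-deficient cells.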

Other observations

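Of 179 tested regions nearest 22 trafficking receptors, 7 (3.91%) opened and 9 (5.03%) closed in Atg14-deficient eTregs, near the 4.41% and 5.40% of all tested regions, with a median log2 fold change of 0.12. Without cTreg replicate 4 the counts were 13 (7.18%) and 11 (6.08%), against 6.23% and 5.85% of all regions, and with the replicate block 15 (8.38%) and 18 (10.1%), against 7.63% and 7.84%. Opening regions lay at Ccr1, Ccr6, Cxcr4, Cxcr5 and S1pr4, and closing ones at Ccr9, Cxcr4 and the integrin gene Itga4. Cxcr4, the CXCL12 receptor, closed at 4 of 29 regions and opened at 1. Its region 9224 bp upstream had 27.7, 17.5, 20.8 and 16.7 CPM in cTregs and 10.8, 6.69, 9.53 and 7.19 CPM in eTregs, which did not overlap (log2 fold change -1.26 ± 0.26 SE, edgeR adjusted p = 0.0026). Ccr8, a skin-homing receptor, had 26.9, 23.4, 22.3 and 29.2 CPM at its promoter in cTregs and 36.3, 32.2, 31.8 and 22.6 CPM in eTregs, which overlapped (log2 fold change 0.27 ± 0.18 SE, edgeR adjusted p = 0.371).

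Of 66 regions nearest 10 genes of the TNF receptor superfamily list, 1 (1.52%) opened and 2 (3.03%) closed (median log2 fold change -0.04; 5 and 2 without cTreg replicate 4), and of 46 nearest 11 housekeeping genes 0 opened and 3 (6.52%) closed, all at Ywhaz (median -0.12; 2 and 4 without cTreg replicate 4, 2 and 3 with the replicate block). The shares of all tested regions were again 4.41% and 5.40%, and those above in the other fits. Of 90 regions nearest survival and death genes, 2 (2.22%) opened and 6 (6.67%) closed, against the same shares, with a median log2 fold change of 0.00. The counts were 4 and 7 with the replicate block and 2 and 4 without cTreg replicate 4. Bcl2l11, which encodes the death-promoting protein Bim, accounted for 4 of the 6. Its region 123466 bp downstream (chr2:128250866-128251217) had 18.5, 18.7, 22.1 and 14.1 CPM in cTregs and 3.60, 3.35, 3.71 and 4.11 CPM in eTregs. The groups were far apart (log2 fold change -2.30 ± 0.32 SE, edgeR adjusted p = 8.86e-05), and the control log2 fold change was -1.73.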
